A study of Mus musculus with 6 samples.

Results

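Genes of autophagy and of lysosomal acidification were followed by RNA sequencing in 4T1-LM3, a line of mouse mammary carcinoma cells. The set held every gene whose symbol begins with Atg and a number, Map1lc3, Gabarap, Atp6v or Atp6ap, the numbered Wipi, Ulk and Lamp genes, and Becn1, Tfeb and Tfe3. It counted 58 of the 16426 genes listed, of which 30 encode autophagy proteins, 22 encode subunits of the vacuolar proton pump (V-ATPase), 4 are Lamp genes and 2 are transcription factors. Genes with at least 1 FPKM (fragments counted per length of transcript and scaled to the library's mapped fragments) in at least 3 of the 6 libraries were tested, which kept 48 of the 58. In 3 libraries the cells had received conditioned medium (CM) from matrix fibroblasts described as Tdo2high (Tdo2high MFs CM), and in 3 libraries a control medium (Control CM) whose cell source is not stated. Tdo2 encodes tryptophan 2,3-dioxygenase, the enzyme that opens the route to kynurenine. Medium of fibroblasts with low Tdo2 was not among the labelled conditions, so Tdo2 and other differences between the media cannot be told apart. Nor do the labels say that the libraries of a group came from separate cultures, so that p-values measure the spread between these libraries, which may be technical.

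Autophagy encloses cytoplasm in a new membrane, the autophagosome, and delivers it to the lysosome for breakdown. A kinase complex around Ulk1 starts the process, a lipid kinase complex with Becn1 marks the site, and conjugation enzymes attach small proteins of the Atg8 family (LC3 and GABARAP) to the growing membrane. Lysosomal enzymes need acid, which the V-ATPase supplies: its cytosolic V1 sector splits ATP and its membrane V0 sector carries protons. TFEB and TFE3 are transcription factors that bind an E-box motif and switch on many lysosomal and autophagy genes. Lysosomal breakdown of ferritin, the iron store, links autophagy to ferroptosis, the iron-dependent cell death named in the title of the study.

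The libraries summed to between 438603 and 447415 FPKM. On the log2(FPKM + 1) scale Pearson's r was 0.9972 to 0.9977 within groups and 0.9956 to 0.9961 between groups. These are correlations across genes, which are not independent replicates. Read depth is unknown. The carcinoma keratins Krt8 and Krt18 summed to 637 to 668 FPKM with Tdo2high MFs CM and 615 to 651 FPKM with Control CM. Krt18 had 378.66, 382.15 and 372.92 FPKM with Tdo2high MFs CM, against 351.43, 368.56 and 347.11 FPKM with Control CM, without overlap. It did not pass (adjusted p = 0.121 by limma), and the groups of Krt8 overlapped (adjusted p = 0.766). Of 7 fibroblast markers 6 were listed, with sums of 80.7 to 82.7 FPKM with Tdo2high MFs CM and 80.5 to 82.3 FPKM with Control CM. Those near-equal sums held markers that moved in opposite directions without overlap. Dcn had 11.85, 10.75 and 9.99 FPKM with Tdo2high MFs CM, against 16.06, 15.03 and 15.48 FPKM with Control CM (log2 difference -0.48, adjusted p = 0.00114 by limma), a larger difference than that of any tested gene of the set. Pdgfra had 47.23, 47.20 and 47.55 FPKM with Tdo2high MFs CM, against 41.93, 42.14 and 41.71 FPKM with Control CM (log2 difference 0.17, adjusted p = 0.00518). Their part in the results below was not tested. Pdgfrb did not pass (adjusted p = 0.644), while Col1a1 did not exceed 0.12 FPKM and Lum did not exceed 0.03. Macrophage and endothelial markers summed to at most 2.16 and 0.12 FPKM in any library.

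Differences were small throughout the set. After Tdo2high MFs CM, Gabarapl1 and Map1lc3b, both of the Atg8 family, rose, and Atp6v0b and Atp6ap1, both of the proton pump, fell. These 4 were 8.33% of the 48 tested genes, and 7.41% of all 10804 tested genes were called in either direction at an adjusted p under 0.05 (limma, Benjamini-Hochberg over all tested genes). The share in the set was thus near that of all genes. Among the 28 tested autophagy genes, 2 rose and 0 fell by limma (3 and 3 at an unadjusted p under 0.05), and among the 16 tested pump genes, 0 rose and 2 fell (0 and 4 unadjusted). At the unadjusted threshold 23.7% of all tested genes passed, 9.68% higher and 14.1% lower, so the unadjusted counts of 6 of 28 and 4 of 16 were also near the background. Of all tested genes 3.35% rose and 4.06% fell. The median log2 difference, Tdo2high MFs CM minus Control CM, was -0.024 for autophagy genes, -0.044 for pump genes and -0.014 for all tested genes. These gaps depended on single libraries: without Control CM replicate 3 the pump median was -0.0148 and that of all genes -0.016. In the other fits that left out 1 library the pump median stayed below that of all genes. The gap was widest without Control CM replicate 1 (-0.0682 and -0.0123). The autophagy median was above that of all genes without Control CM replicate 2 (-0.0056 and -0.0134) and without Tdo2high MFs CM replicate 1 (-0.013 and -0.0159). All 48 log2 differences lay between -0.20 and 0.23 on the log2(FPKM + 1) scale, which understates those of low genes. The mean of Atg10 was 25.8% higher and that of Atg4d 14.7% lower, and neither gene was called. In bulk RNA a change in the share of some cells and a change in RNA per cell cannot be told apart.

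The 2 rises held when each library was divided by its median of ratios, but both falls ended under that scaling, at adjusted p = 0.0513 for Atp6v0b and adjusted p = 0.0704 for Atp6ap1 by limma. Under it 7.61% of all genes were called, of which 455 rose (4.21%) and 367 fell (3.4%), while as deposited the split was 362 higher and 439 lower. Both falls also ended when no filter was set on low values (adjusted p = 0.0881 for Atp6v0b and 0.0787 for Atp6ap1 by limma). Without an intensity trend in the variance all 4 calls ended, at adjusted p = 0.0524 for Gabarapl1, 0.0728 for Map1lc3b, 0.0965 for Atp6v0b and 0.104 for Atp6ap1 by limma.

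**Figure D1:**
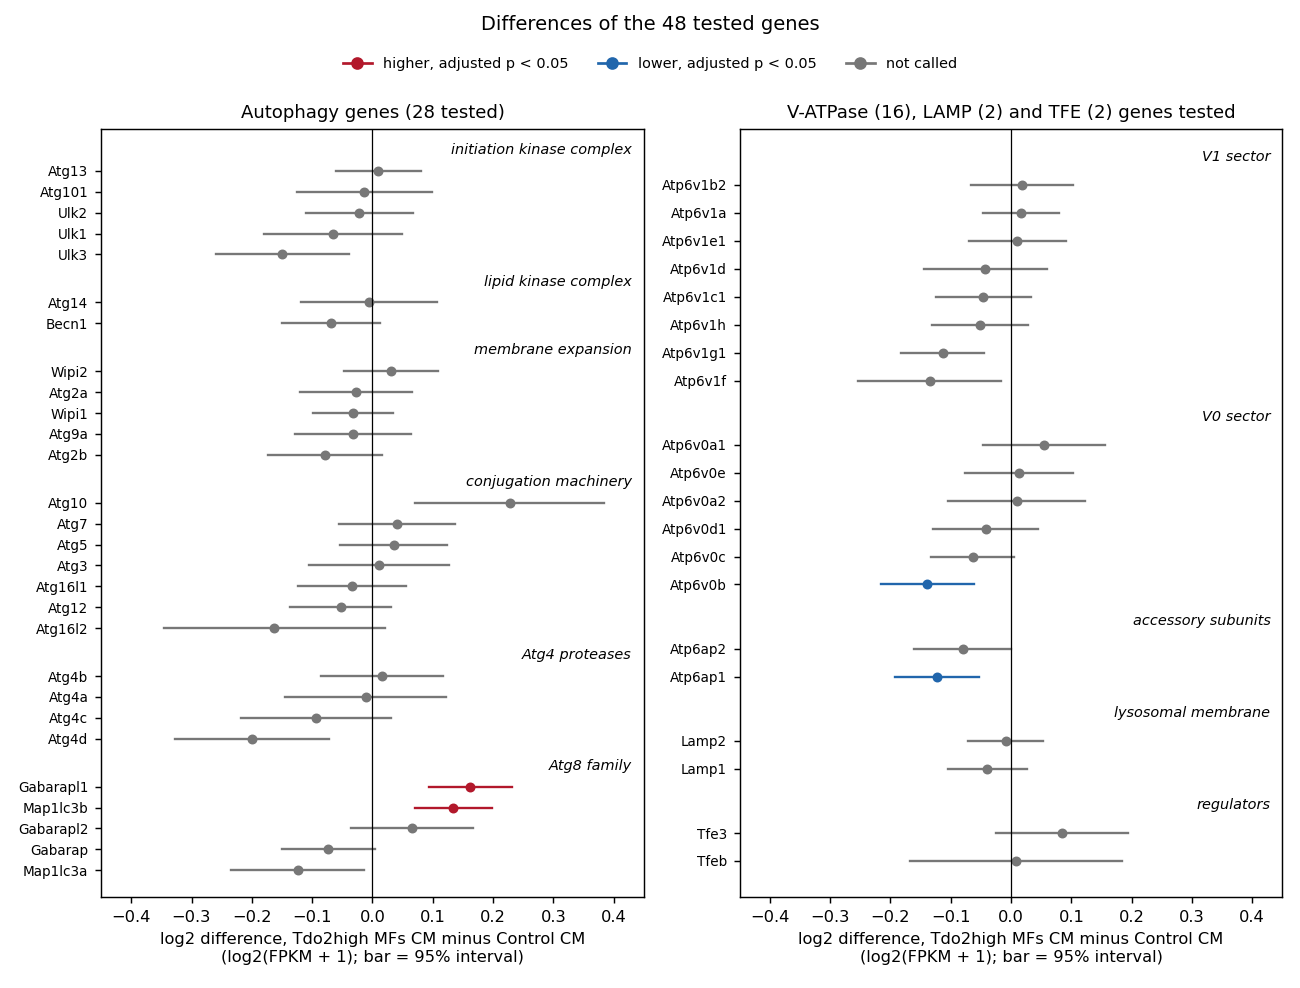
Log2 difference of each of the 48 tested genes, Tdo2high MFs CM minus Control CM on the log2(FPKM + 1) scale (horizontal axis), by role; points are estimates and bars 95% intervals of the limma fit with 3 libraries per group. Gabarapl1 and Map1lc3b lie to the right of 0 in red, Atp6v0b and Atp6ap1 to the left in blue, and the 44 genes in grey were not called.

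Promoter sequences of the 4 called genes were read for CACGTG, the core of the E-box of TFEB and TFE3. Those of Lamp1 and Atp6v1a were read as members with that motif whose mRNA was not called. Each run gives the 250 bases before a RefSeq transcript start on GRCm38.p6, 5′ to 3′ on the gene's strand, with CACGTG in capitals. For Atp6v1a that start lies 443 bases inside the gene as RefSeq bounds it, so its window is within the gene; for Atp6v0b it lies 4 bases inside, and for the other 4 genes it is the outer end of the gene.
Gabarapl1: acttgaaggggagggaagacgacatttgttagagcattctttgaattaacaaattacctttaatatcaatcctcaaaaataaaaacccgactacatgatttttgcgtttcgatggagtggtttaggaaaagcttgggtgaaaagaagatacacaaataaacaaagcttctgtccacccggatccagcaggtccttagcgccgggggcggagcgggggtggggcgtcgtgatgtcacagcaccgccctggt
Map1lc3b: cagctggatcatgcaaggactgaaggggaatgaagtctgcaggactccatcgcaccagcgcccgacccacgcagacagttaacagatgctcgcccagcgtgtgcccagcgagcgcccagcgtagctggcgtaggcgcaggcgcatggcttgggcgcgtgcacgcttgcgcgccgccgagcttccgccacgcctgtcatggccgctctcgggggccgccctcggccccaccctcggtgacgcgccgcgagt
Atp6v0b: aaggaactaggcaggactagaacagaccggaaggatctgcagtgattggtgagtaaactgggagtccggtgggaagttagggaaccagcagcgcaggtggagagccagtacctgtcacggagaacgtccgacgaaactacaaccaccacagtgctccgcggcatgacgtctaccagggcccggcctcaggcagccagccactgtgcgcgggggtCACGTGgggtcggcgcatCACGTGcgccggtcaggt
Atp6ap1: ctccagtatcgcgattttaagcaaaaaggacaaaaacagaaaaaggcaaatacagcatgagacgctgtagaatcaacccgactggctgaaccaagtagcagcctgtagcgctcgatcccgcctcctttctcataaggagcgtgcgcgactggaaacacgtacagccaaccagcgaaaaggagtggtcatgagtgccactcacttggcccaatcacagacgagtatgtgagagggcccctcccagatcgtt
Lamp1: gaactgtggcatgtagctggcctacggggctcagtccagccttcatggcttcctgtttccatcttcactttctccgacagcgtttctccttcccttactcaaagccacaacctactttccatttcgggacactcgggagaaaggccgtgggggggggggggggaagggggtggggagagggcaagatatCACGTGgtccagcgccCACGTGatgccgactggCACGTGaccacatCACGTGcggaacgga
Atp6v1a: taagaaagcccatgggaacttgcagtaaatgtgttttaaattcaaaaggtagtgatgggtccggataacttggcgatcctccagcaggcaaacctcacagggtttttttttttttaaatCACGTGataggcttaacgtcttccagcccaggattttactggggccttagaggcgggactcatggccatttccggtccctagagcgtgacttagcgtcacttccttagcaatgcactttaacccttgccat
They lie at chr6:129532942-129533191 (plus strand), chr8:121590188-121590437 (plus strand), chr4:117887330-117887579 (minus strand), chrX:74296847-74297096 (plus strand), chr8:13158911-13159160 (plus strand) and chr16:44139260-44139509 (minus strand).

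CACGTG reads the same on both strands. Of the 58 genes 48 had an entry, and 6 of these (12.5%) held the motif in a window, against 6.86% of all 27025 genes with an entry. All 6 were among the 39 tested members with an entry (15.38%), and the share was 10.08% of the 8752 tested genes with one. These 6 were Lamp1 with 4 copies, Atp6v0b and Atg3 with 2 each, and Atp6v1a, Atg5 and Atg7 with 1 each; the window of Atg7 lies before a transcript start 27969 bases inside the gene. The copies of Atp6v0b began 36 and 18 bases before the transcript start, and those of Lamp1 began 61, 45, 28 and 15 bases before it. The longer TCACGTGA, which contains the core, stood in Atg3 and Atp6v1a. That was 5.13% of the 39 tested members, against 1.93% of tested genes. The longest form scanned, which extends TCACGTGA at both ends, stood in 0 of the 39 tested members, against 0.64% of tested genes. It was also in 0 of the 48 members with an entry. Thus 1 of the 4 called genes, Atp6v0b, had the core CACGTG in its window, but not TCACGTGA. A match is a description of the sequence and does not show binding. Lack of a match in a window does not show that the gene has no such motif elsewhere.

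The Atg8 family are ubiquitin-like proteins that coat the autophagosome and hold cargo receptors, and all 5 of its genes were tested. Gabarapl1 had 87.21, 92.52 and 92.64 FPKM with Tdo2high MFs CM, against 80.60, 81.76 and 80.65 FPKM with Control CM. All libraries of the first group were above all of the second, and the mean was 12.1% higher. Its log2 difference was 0.16 ± 0.03 (SE), with adjusted p = 0.0132 by limma. Map1lc3b, the gene of LC3B, had 112.47, 112.61 and 111.45 FPKM with Tdo2high MFs CM, against 98.91, 103.32 and 104.24 FPKM with Control CM. Here too the groups did not overlap, and the mean was 9.81% higher. For Map1lc3b the log2 difference was 0.13 ± 0.03 (SE), with adjusted p = 0.022 by limma.

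The calls did not all survive the loss of a library. Gabarapl1 was called in 4 of 6 fits that left out 1 library, and missed the threshold without Tdo2high MFs CM replicate 2 (adjusted p = 0.0539 by limma) and replicate 3 (0.0552). Map1lc3b was called without Control CM replicate 2 or 3 only, with adjusted p = 0.065, 0.0705 and 0.0626 without Tdo2high MFs CM replicates 1, 2 and 3, and 0.0725 without Control CM replicate 1. Over these fits its log2 difference stayed between 0.11 and 0.15, and that of Gabarapl1 between 0.15 and 0.19.

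The other 3 members of the family did not pass. Map1lc3a, the gene of LC3A, had 57.94, 58.46 and 57.57 FPKM with Tdo2high MFs CM, against 58.60, 68.93 and 62.69 FPKM with Control CM. Its groups did not overlap, but Control CM libraries were more spread, and the log2 difference of -0.12 (95% interval -0.23 to -0.01) had adjusted p = 0.166 by limma. Gabarap, the most abundant of the 5, had 196.66, 200.94 and 196.02 FPKM with Tdo2high MFs CM, against 214.76, 212.67 and 197.78 FPKM with Control CM. Control CM replicate 3 lay among the Tdo2high values, and the log2 difference was -0.074 (95% interval -0.15 to 0.003, adjusted p = 0.23 by limma). Gabarapl2 had 74.44, 77.84 and 73.55 FPKM with Tdo2high MFs CM, against 68.47, 77.54 and 69.87 FPKM with Control CM, and the groups overlapped (0.066, adjusted p = 0.423).

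As a description with no test, the 5 genes summed to 534 ± 7.30 FPKM with Tdo2high MFs CM and 527 ± 15.3 FPKM with Control CM (SD, n = 3 each), and the sums overlapped. Ratios were formed for 2 pairs, chosen after the values were seen, so that the lack of overlap was set by the choice. The ratio of Map1lc3b to Map1lc3a was 1.941, 1.926 and 1.936 with Tdo2high MFs CM, against 1.688, 1.499 and 1.663 with Control CM. For Gabarapl1 to Gabarap the ratio was 0.444, 0.460 and 0.473 with Tdo2high MFs CM, against 0.375, 0.384 and 0.408 with Control CM. Neither ratio overlapped between the groups, and a common scaling of a library cancels out in both.

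**Figure D2:**
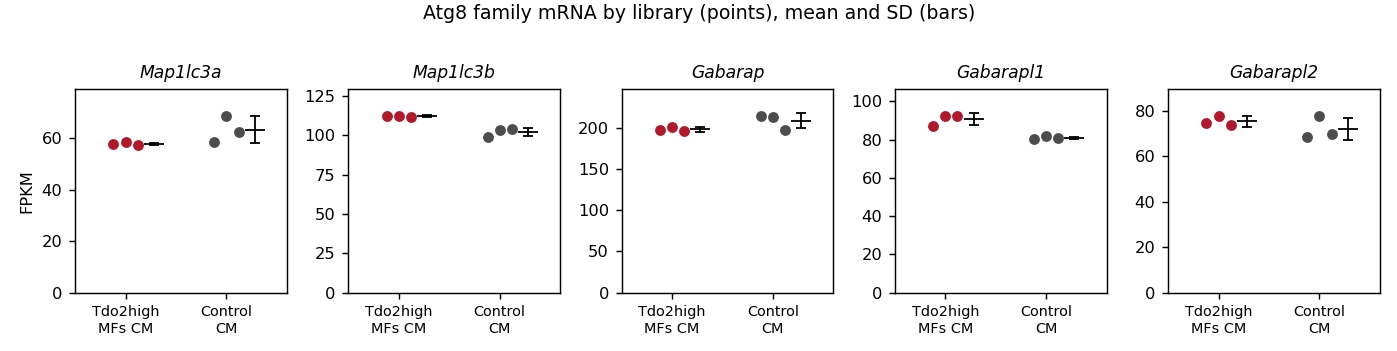
FPKM (vertical axis, from 0) of the 5 Atg8 family genes in each library, Tdo2high MFs CM in red and Control CM in grey; bars at the side give the mean and SD of 3 libraries. Gabarapl1 and Map1lc3b are higher in all Tdo2high MFs CM libraries, and Map1lc3a is lower in all 3.

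Near-identical sequence can move reads between genes. Among 50-base stretches of its annotated transcripts (GENCODE M21), Map1lc3b shared 6.01% with other genes, and 3.67% with the gene model Gm6055. Gabarapl1 shared 23.1% with 1700101I11Rik, which is not analysed here. That gene overlaps 2.58% of the exon bases of Gabarapl1 on the opposite strand, in the basic GENCODE annotation. Whether counting used strand is not stated, so part of the value of Gabarapl1 is uncertain. Map1lc3b lies on chromosome 8 from 121590438 to 121598760 and Gabarapl1 on chromosome 6 from 129533192 to 129542331 (GRCm38).

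Upstream of these, none of the 23 other tested autophagy genes passed. The Ulk kinases Ulk1, Ulk2 and Ulk3 and the complex partners Atg13 and Atg101 had log2 differences between -0.15 and 0.01. Ulk1, the kinase that starts autophagy, had 13.71, 12.06 and 13.38 FPKM with Tdo2high MFs CM, against 14.12, 13.73 and 13.23 FPKM with Control CM. The groups overlapped (-0.066, adjusted p = 0.475 by limma). Ulk3, a related kinase, had 9.78, 9.25 and 10.06 FPKM with Tdo2high MFs CM, against 11.43, 10.42 and 10.74 FPKM with Control CM. Its groups did not overlap, but the log2 difference of -0.15 ± 0.05 (SE) had adjusted p = 0.1 by limma.

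Becn1, the scaffold of the lipid kinase complex, had 52.14, 55.94 and 55.65 FPKM with Tdo2high MFs CM, against 56.21, 56.27 and 59.29 FPKM with Control CM. The groups were adjacent without overlap, at a log2 difference of -0.068 (95% interval -0.15 to 0.013, adjusted p = 0.293 by limma). A part of the exons of Becn1, 29.6% of bases, overlaps those of Cntd1 on the opposite strand. Cntd1 did not exceed 0.39 FPKM. Atg14, which directs that complex to autophagy, had 8.08 ± 0.501 FPKM with Tdo2high MFs CM and 8.11 ± 0.0503 FPKM with Control CM (SD, n = 3 each). Among the 5 tested genes of membrane expansion (Wipi1, Wipi2, Atg2a, Atg2b, Atg9a) the log2 differences ran from -0.079 to 0.031. Of these, Atg9a overlaps the gene model Gm29253 on the same strand in 41.8% of its exon bases and is uncertain. Wipi1, a reader of the lipid mark and the most abundant of these 5, had 42.6 ± 0.754 FPKM with Tdo2high MFs CM and 43.6 ± 0.767 FPKM with Control CM (SD, n = 3 each; adjusted p = 0.55 by limma).

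The conjugation machinery gave the largest positive log2 difference of the set. Atg10, the enzyme that transfers Atg12 to Atg5, had 2.41, 2.36 and 2.73 FPKM with Tdo2high MFs CM, against 1.92, 1.94 and 2.10 FPKM with Control CM. The groups did not overlap, but at this low level the estimate of 0.23 ± 0.07 (SE) had adjusted p = 0.0816 by limma, and it passed at adjusted p = 0.0473 when no intensity trend was fitted. The other 6, namely Atg3, Atg5, Atg7, Atg12, Atg16l1 and Atg16l2, lay between -0.16 and 0.041. Atg12, the ubiquitin-like partner of Atg5 and the most abundant of the 7, had 26.1 ± 0.62 FPKM with Tdo2high MFs CM and 27.1 ± 1.09 FPKM with Control CM (SD, n = 3 each). Atg16l2 had 9.28, 7.14 and 8.88 FPKM with Tdo2high MFs CM, against 10.18, 9.10 and 9.27 FPKM with Control CM, with 1 low Tdo2high library (-0.16, adjusted p = 0.267 by limma).

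Atg4 proteases trim Atg8 proteins before conjugation and free them from membranes afterwards. Atg4d had the largest negative log2 difference of the set, with 6.60, 6.14 and 6.55 FPKM with Tdo2high MFs CM, against 7.20, 8.16 and 7.26 FPKM with Control CM. The groups did not overlap, and the log2 difference of -0.20 ± 0.06 (SE) had adjusted p = 0.0653 by limma. It was called at adjusted p = 0.0477 when libraries were scaled to the same total. A part of its exons, 23.2% of bases, overlaps those of Kri1 on the opposite strand, and whether counting used strand is not stated; Kri1 had 17.65 to 19.54 FPKM over all libraries (adjusted p = 0.849). Atg4b, the most abundant protease of the 4, had 20.8 ± 1.153 FPKM with Tdo2high MFs CM and 20.6 ± 0.731 FPKM with Control CM (SD, n = 3 each). Atg4a shared 51.2% of its 50-base stretches with the pseudogene Atg4a-ps and is uncertain.

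On the acidification side, Atp6v0b and Atp6ap1 were the genes that fell. Atp6v0b encodes a proteolipid of the V0 rotor ring. It had 51.52, 49.99 and 51.07 FPKM with Tdo2high MFs CM, against 57.74, 57.11 and 53.51 FPKM with Control CM. The groups did not overlap, and the mean fell by 9.37%, with a log2 difference of -0.14 ± 0.03 (SE) and adjusted p = 0.0381 by limma. Atp6ap1 encodes an accessory subunit that assists assembly of the pump. It had 53.94, 55.23 and 53.60 FPKM with Tdo2high MFs CM, against 58.39, 61.22 and 57.87 FPKM with Control CM. Again no library of one group reached the other, and the mean fell by 8.29%, with a log2 difference of -0.12 ± 0.03 (SE) and adjusted p = 0.0421 by limma. Of fits without 1 library, 0 of 6 called Atp6ap1 (adjusted p = 0.0612 to 0.133) and 1 of 6 called Atp6v0b, namely that without Control CM replicate 3 (0.0219; the other 5 gave 0.0743 to 0.125). Atp6v0b lies on chromosome 4 from 117884330 to 117887333, and Atp6ap1 on chromosome X from 74297097 to 74304721 (GRCm38).

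Small V1 subunits also had negative differences, and that of Atp6v1f was larger than that of Atp6ap1. Atp6v1g1, a subunit of the stalk that holds the V1 sector in place, had 93.53, 88.87 and 92.59 FPKM with Tdo2high MFs CM, against 101.00, 100.26 and 96.46 FPKM with Control CM. The groups did not overlap, and the log2 difference of -0.11 ± 0.03 (SE) had adjusted p = 0.0557 by limma. Atp6v1g1 shared 19.2% of its 50-base stretches with the gene model Gm13453. Atp6v1f, a subunit of the turning shaft, had 76.95, 71.23 and 77.66 FPKM with Tdo2high MFs CM, against 79.34, 90.30 and 78.93 FPKM with Control CM. Control CM replicate 2 stood above the rest, and the log2 difference of -0.13 ± 0.05 (SE) had adjusted p = 0.158 by limma. Atp6ap2, the second accessory subunit, had 23.27, 24.10 and 22.29 FPKM with Tdo2high MFs CM, against 24.83, 24.46 and 24.49 FPKM with Control CM, with no overlap (-0.080, adjusted p = 0.214).

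The subunits that split ATP gave differences near 0. Atp6v1a, the catalytic subunit, had 38.14, 39.01 and 38.49 FPKM with Tdo2high MFs CM, against 38.41, 37.65 and 38.24 FPKM with Control CM. Its log2 difference was 0.016 (95% interval -0.047 to 0.079). Atp6v1b2, its partner in the ring of V1, had 27.3 ± 0.41 FPKM with Tdo2high MFs CM and 27.0 ± 1.24 FPKM with Control CM (SD, n = 3 each), with a log2 difference of 0.018 (95% interval -0.066 to 0.10). Atp6v1h, the subunit that holds the freed V1 inactive, had 26.3 ± 0.508 FPKM with Tdo2high MFs CM and 27.3 ± 0.954 FPKM with Control CM (SD, n = 3 each; adjusted p = 0.428 by limma). Atp6v1c1, Atp6v1d and Atp6v1e1 lay between -0.046 and 0.011 on the log2 scale. In the membrane sector, Atp6v0c, the main proteolipid and the most abundant pump mRNA, had 116.89, 121.34 and 115.84 FPKM with Tdo2high MFs CM, against 119.89, 126.09 and 124.24 FPKM with Control CM. Those groups overlapped (-0.064, adjusted p = 0.24 by limma), and 10.8% of its 50-base stretches were shared with other genes, mostly the copy Atp6v0c-ps2. The proton path subunit Atp6v0a1 had the largest positive value of the pump genes picked by symbol, 0.054 (95% interval -0.047 to 0.16). Atp6v0a2, Atp6v0d1 and Atp6v0e lay between -0.042 and 0.013.

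**Figure D3:**
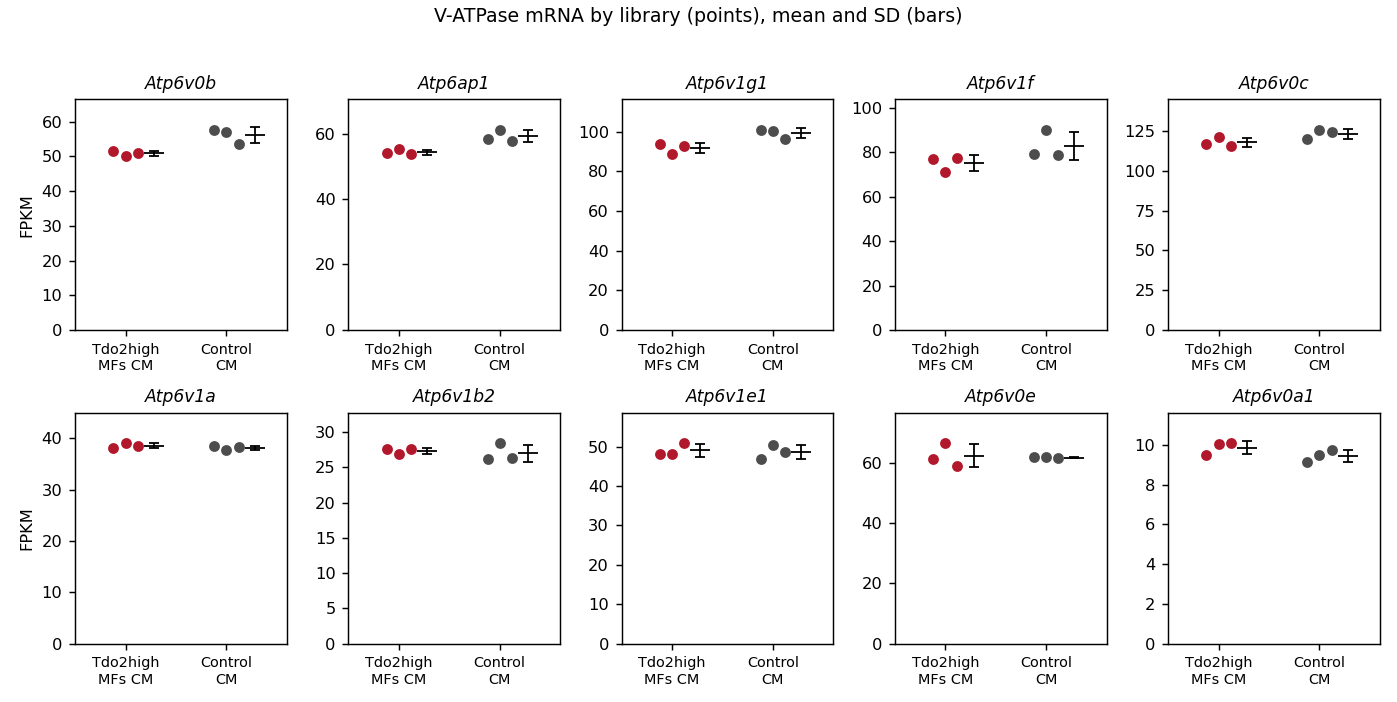
FPKM (vertical axis, from 0) of 10 pump genes in each library, Tdo2high MFs CM in red and Control CM in grey; bars at the side give the mean and SD of 3 libraries. Atp6v0b, Atp6ap1, Atp6v1g1 and Atp6v1f are lower in all Tdo2high MFs CM libraries, while the points of Atp6v1a, Atp6v1b2, Atp6v1e1, Atp6v0e and Atp6v0a1 overlap.

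Set side by side, the groups differed in their summed levels, given here as a description. The 22 pump genes summed to 723.3, 722.0 and 722.4 FPKM with Tdo2high MFs CM, against 746.1, 771.9 and 750.2 FPKM with Control CM, with no overlap. Picked by symbol, these 22 leave out Tcirg1, the a3 subunit of the V0 sector, which was lower and is given below. Also left out is Rnasek, listed among the partners of the pump. Rnasek had 44.3 ± 2.98 FPKM with Tdo2high MFs CM and 40.7 ± 2.94 FPKM with Control CM (SD, n = 3 each). Its log2 difference was 0.12 (adjusted p = 0.244 by limma). The 30 autophagy genes summed to 892.9, 905.2 and 901.7 FPKM with Tdo2high MFs CM, against 893.6, 919.9 and 890.9 FPKM with Control CM, and these overlapped. Without the 5 Atg8 family genes the autophagy sum was 364.2, 362.9 and 370.5 FPKM with Tdo2high MFs CM, against 372.3, 375.7 and 375.6 FPKM with Control CM. That remainder was thus also lower in all Tdo2high libraries, with a difference of group means of -2.31%, and that of the pump sum was -4.43%. The ratio of autophagy to pump sum was 1.245 ± 0.0103 with Tdo2high MFs CM and 1.192 ± 0.00551 with Control CM (SD, n = 3 each). The pump sum stayed lower in all Tdo2high libraries under the median of ratios, at 724.3 to 727.5 against 740.0 to 768.1 FPKM with Control CM. With libraries scaled to the same total it was 718.7 to 720.7 with Tdo2high MFs CM, against 753.9 to 764.5 with Control CM. Most of the difference lay in 5 genes, chosen after their values were seen: Atp6v1f, Atp6v1g1, Atp6v0c, Atp6v0b and Atp6ap1 accounted for -30.7 of -33.5 FPKM between the group means. The other 17 pump genes summed to 330.5 to 335.4 FPKM with Tdo2high MFs CM and 329.8 to 339.2 FPKM with Control CM, and overlapped. Taking out the 5 largest falls favours such an overlap, so it does not show that the difference is confined to them. Across the 48 tested genes the groups did not overlap in 14, or 29.2%, which equals the 29.2% of all tested genes. Of the 48, the Tdo2high libraries were higher without overlap in 3 and lower in 11. Of all 10804 tested genes they were higher in 1257 (11.6%) and lower in 1894 (17.5%). The split was not tested.

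**Figure D4:**
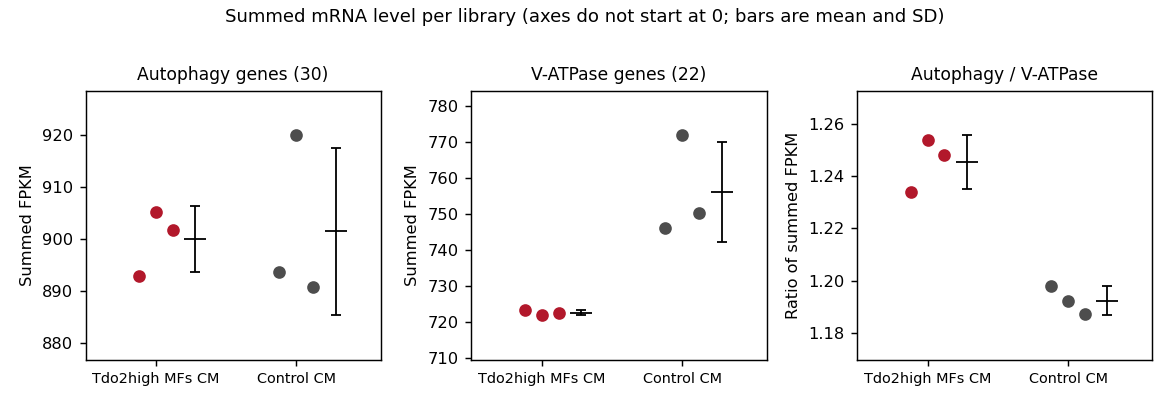
Summed FPKM of the 30 autophagy genes and of the 22 pump genes and their ratio in each library (vertical axes do not start at 0), Tdo2high MFs CM in red and Control CM in grey; bars give the mean and SD of 3 libraries. The pump sum is 722.0 to 723.3 with Tdo2high MFs CM, against 746.1 to 771.9 with Control CM, and the autophagy sums overlap.

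Lysosomal membrane and regulator genes did not pass. Lamp1, a main glycoprotein of the lysosomal membrane, had 148.00, 149.40 and 152.32 FPKM with Tdo2high MFs CM, against 154.26, 158.43 and 149.68 FPKM with Control CM (-0.039, adjusted p = 0.458 by limma). Lamp2, its relative with a role in chaperone-mediated autophagy, had 188 ± 2.44 FPKM with Tdo2high MFs CM and 189 ± 4.51 FPKM with Control CM (SD, n = 3 each). Its log2 difference was -0.0089 (95% interval -0.071 to 0.054). Tfe3 had 12.86, 11.43 and 11.69 FPKM with Tdo2high MFs CM, against 11.18, 11.01 and 11.53 FPKM with Control CM, and the groups overlapped (0.085, adjusted p = 0.335 by limma). Tfeb had 2.7, 2.19 and 2.16 FPKM with Tdo2high MFs CM, against 2.42, 2.36 and 2.19 FPKM with Control CM. Its interval of -0.17 to 0.18 on the log2 scale left changes of either sign possible, and mRNA levels do not show where TFEB protein is in the cell.

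The 10 genes below the filter were mostly isoforms used in other tissues. Ulk4, the closest to the filter, had 0.99, 0.84 and 0.89 FPKM with Tdo2high MFs CM, against 0.94, 0.87 and 0.97 FPKM with Control CM, while Atg10 and Tfeb were the lowest genes above it. The kidney isoforms Atp6v1b1 and Atp6v0a4 did not exceed 0.03 and 0.16 FPKM, and the osteoclast isoform Atp6v0d2 did not exceed 0.07 FPKM. Atp6v1c2 and Atp6v1g2 reached at most 0.04 and 0.84 FPKM, Atg9b 0.15, Lamp3 0.04 and Lamp5 0.03. Atp6v0e2 had 0.48, 0.42 and 0.45 FPKM with Tdo2high MFs CM, against 0.36, 0.38 and 0.39 FPKM with Control CM. These low values carry rounding error and were not tested.

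Further lists covered the rest of the pathway, with 134 tested genes, of which 4 rose and 6 fell (7.46%, against 7.41% of all tested genes). Of 15 genes of autophagosome initiation 1 rose: Pik3c3, the lipid kinase that works with Becn1, had 21.96 ± 0.387 FPKM with Tdo2high MFs CM and 19.3 ± 0.9002 FPKM with Control CM (adjusted p = 0.0258 by limma). Of 12 genes of fusion with the lysosome 1 rose: Vamp8, a SNARE protein of that step, had 98.7 ± 5.46 FPKM with Tdo2high MFs CM and 85.8 ± 1.95 FPKM with Control CM (adjusted p = 0.0174). None of 17 autophagy receptors and none of 10 partners and assembly factors of the pump passed by limma, with 3 receptors and 1 pump gene at an unadjusted p under 0.05, both below the 23.7% of all tested genes. That pump gene was Tcirg1, the a3 subunit of the V0 sector, with 55.3 ± 1.55 FPKM with Tdo2high MFs CM and 59.3 ± 2.84 FPKM with Control CM (SD, n = 3 each). Sqstm1, the receptor p62, had 517 ± 5.28 FPKM with Tdo2high MFs CM and 495 ± 13.8 FPKM with Control CM, and Ncoa4, the receptor for ferritin, had 40.4 ± 1.02 FPKM with Tdo2high MFs CM and 40.1 ± 0.488 FPKM with Control CM.

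Among 18 other lysosomal membrane genes 1 rose and 2 fell (16.7%, against 7.41% of all tested genes). That gap rests on few genes and was not tested. Scarb2, the membrane protein that carries glucocerebrosidase to lysosomes, had 102.23, 105.21 and 105.36 FPKM with Tdo2high MFs CM, against 93.62, 91.62 and 93.94 FPKM with Control CM (adjusted p = 0.00701 by limma). Clcn7, a chloride-proton exchanger, had 5.17, 5.06 and 5.04 FPKM with Tdo2high MFs CM, against 6.48, 5.92 and 6.55 FPKM with Control CM (adjusted p = 0.0179). Tpcn1, a cation channel of endosomes and lysosomes, fell to 76.7 ± 0.862 FPKM with Tdo2high MFs CM, against 84.1 ± 0.382 FPKM with Control CM (adjusted p = 0.014). Of 40 hydrolases 0 rose and 3 fell by limma (2 and 7 at an unadjusted p under 0.05, together 9 of 40, near the 23.7% of all tested genes), among them Ctsz, the protease cathepsin Z (log2 difference -0.19), and Asah1, acid ceramidase (-0.13). In the list of mTORC1 and TFEB control, 1 of 22 rose, the Ragulator subunit Lamtor5 (0.17), and 1 fell, Flcn, folliculin (-0.20). Leaving out 1 library kept the call of Scarb2 in 6 of 6 fits, of Tpcn1 in 4, of Ctsz and Vamp8 in 3, of Clcn7 and Flcn in 2, and of Asah1, Lamtor5 and Pik3c3 in 1.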

How the data were processed

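PolyA RNA of 4T1-LM3 cells was sequenced in 6 libraries, 3 per medium; per the labels' protocols, cDNA was primed with random hexamers and libraries were built at BGI. The authors deposited FPKM for 16426 genes, rounded to 2 decimals, per the file headers and values. The genome build was GRCm38, per the submitters' processing notes; which aligner, quantifier, annotation and strand setting were used is not given in the sources used here. Across 8455 low values, the mean distance from a whole multiple of the smallest nonzero one of that gene was 0.247. Evenly spread values would give 0.25. Rounding to 2 decimals blurs such multiples, so this cannot decide whether low values move in steps of whole reads. Depth is not given in the sources used here, and no count model was used because the values are FPKM.

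Groups follow the titles, which match the column names. Values were tested as log2(FPKM + 1) by limma 3.58.1 in R 4.3.3 (lmFit, eBayes with intensity trend, two-sided, no block) on 10804 genes with at least 1 FPKM in at least 3 libraries, with Benjamini-Hochberg adjustment over all of them and a threshold of 0.05. Differences on this scale understate those of low genes. With 3 against 3 an exact permutation test cannot go below 0.1, so none is given. The fit was tested on simulated data.

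The members, gene lists and promoter motifs were chosen with earlier results of these data known. Named genes were the called ones, the 3 largest differences each way among autophagy and among pump genes, the most abundant of each role, a fixed set of key genes, and up to 4 called genes per further list; other names are examples, and 1 called gene is not reported here. Promoters came from the RefSeq table (GRCm38.p6), gene positions from RefSeq, and transcripts from GENCODE M21, of the same build. A comparison of protein sequences is not made here. A total of 26 symbols turned into dates were replaced by gene number, none of them members. Alternatives were another pseudocount, filters, scalings, variance models, a replicate block and leaving out each library; a length and GC correction (10581 genes with both values) was chosen later, with the data seen. Plots used matplotlib 3.10.9.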

Additional observations from a re-analysis of the deposited data

How the results depend on the processing

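Precision is set by 3 libraries per group and by small log2 differences. The 2 members that rose and the 2 that fell stayed so in number with a pseudocount of 0.1, with 1 FPKM required in all 6 libraries and with robust variance. No member fell (0) without a filter on low values (where 394 genes were called in all), under the median of ratios, with the replicate block, or without an intensity trend, where 1 member (Atg10) rose and 525 genes were called in all. Scaling to the same total gave 4 falls (Atg4d and Atp6v1g1 in addition). For the block, same-numbered libraries did not deviate together (r = -0.023, -0.03 and 0.018), so the numbers were not taken as pairs; 622 genes were called with it. With the length and GC correction, 2 members rose and 3 fell (Atp6v1g1 in addition). Under it the autophagy median was -0.0054 and the pump median -0.0494.

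Without 1 library, 0 to 2 members rose, 0 to 1 fell and 395 to 559 genes were called in all. Both counts were 0 by limma without Tdo2high MFs CM replicate 2 or replicate 3. In these fits the pump median ran from -0.0682 (without Control CM replicate 1) to -0.0148 (without Control CM replicate 3) and the autophagy median from -0.0372 to -0.0056 (without Control CM replicate 2). Over all 48 tested members, 15 changed sign in at least 1 alternative; each had an absolute log2 difference of at most 0.033 as deposited, and none (0 of 15) was called by limma in any alternative. The 5 of them among the 29 named by rule were Atg13 (-0.0002, same total), Lamp2 (0.0053, median of ratios; 0.001, length and GC; 0.001 and 0.0084 without Tdo2high MFs CM replicate 3 and Control CM replicate 1), Atg4b (-0.0239 and -0.0125, the same libraries left out), Atp6v1b2 (-0.0031, without Control CM replicate 1) and Tfeb (-0.0653 and -0.0209, without Tdo2high MFs CM replicate 1 and Control CM replicate 3). Without 1 library each, Atg4b ran from -0.0239 to 0.0521, Atp6v1b2 from -0.0031 to 0.0549, Lamp2 from -0.0257 to 0.0084 and Tfeb from -0.0653 to 0.0485. The cause was not tested.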

Other observations

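In the further lists the groups did not overlap for 36 of 134 tested genes (26.9%, below the 29.2% of all tested genes), so the genes given here are values and not a pattern of the lists; they were chosen after their values were seen, and none passed the test. Among autophagy receptors of mitochondria, Fundc1 had 11.38, 9.33 and 10.08 FPKM with Tdo2high MFs CM, against 8.44, 9.23 and 8.97 FPKM with Control CM (adjusted p = 0.122 by limma). Bnip3, a receptor of the same kind, had 22.9 ± 1.27 FPKM with Tdo2high MFs CM and 20.99 ± 0.495 FPKM with Control CM (adjusted p = 0.127; SD, n = 3 each). The most abundant hydrolase, the protease cathepsin L (Ctsl), had 1485.95, 1580.01 and 1525.98 FPKM with Tdo2high MFs CM, against 1400.40, 1402.60 and 1412.93 FPKM with Control CM (adjusted p = 0.0628). Cathepsin B (Ctsb) stood the other way, with 368 ± 3.78 FPKM with Tdo2high MFs CM and 394 ± 9.28 FPKM with Control CM (adjusted p = 0.0697; SD, n = 3 each). Mcoln1, a calcium channel of lysosomes, had 11.10, 11.29 and 10.35 FPKM with Tdo2high MFs CM, against 12.62, 12.64 and 11.69 FPKM with Control CM (adjusted p = 0.0755). The Ragulator subunit Lamtor2, a partner of Lamtor5, had 103.20, 105.48 and 108.10 FPKM with Tdo2high MFs CM, against 97.36, 88.33 and 99.33 FPKM with Control CM (adjusted p = 0.0602).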
